A study of Mus musculus with 8 samples.

Results

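The Pax loci are 8 stretches of the mouse genome, each holding 1 gene of the paired box (Pax) family: Pax1, Pax2, Pax3, Pax5, Pax6, Pax7, Pax8 and Pax9. They were chosen by position, as windows of 60 to 230 kb on the mm9 build that together span 1.02 Mb, and every called Ezh2 or G9a peak that overlapped a window was taken. This gave 331 of the 174428 peaks in the 5 lists: 83 of 5425 in wild-type Ezh2 library 0, 61 of 11766 in wild-type Ezh2 library 1, 84 of 6198 in knockout Ezh2, 56 of 67318 in wild-type G9a and 47 of 83721 in rescue G9a. The remaining mouse family member, Pax4, had no window. Peaks were taken as lying at a locus and were not assigned to the gene, since other genes lie close by (in RefSeq GRCm38.p6 the coding neighbours include Foxa2 for Pax1, Zcchc7 for Pax5 and Elp4 for Pax6).

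All libraries came from TT2, an embryonic stem cell line from a cross of a C57BL/6 female and a CBA male, grown with LIF. Ezh2 was profiled by ChIP-seq in wild-type TT2 cells (2 libraries, numbered 0 and 1 in their titles) and in TT2 cells carrying G9a-/- and GLP-/- (1 library). G9a was profiled in wild-type TT2 cells (1 library) and in G9a-/- GLP-/- cells given back wild-type G9a (1 library, called the rescue), which by their label remained without GLP. In the titles the knockout Ezh2 library is numbered 0 and both G9a libraries are numbered 1. The labels do not say whether the knockout line is 1 clone, how G9a was put back, or whether separate cultures gave the wild-type Ezh2 libraries, whose spread is then possibly technical. The source name of the knockout Ezh2 library gives the parental line alone, and its title and description were followed. Peak lists hold no measure of G9a, GLP or any cell type marker, so neither the deletion nor the cell type could be checked from them.

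Pax proteins are transcription factors with a DNA-binding paired domain, which set up organs and cell lineages in the embryo. Their genes are textbook targets of Polycomb repression in embryonic stem cells: Polycomb repressive complex 2, whose enzyme is Ezh2, puts methyl groups on histone H3 lysine 27 around their CpG-rich starts while the genes are silent. G9a and GLP form another silencing enzyme, which acts on lysine 9 of the same histone. By sequence the family falls into Pax1 with Pax9, Pax2 with Pax5 and Pax8, Pax3 with Pax7, and Pax4 with Pax6, and the loci are described in that order.

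Upstream sequences of 3 members are shown because CpG-rich starts are where Polycomb is known to gather, and because these genes span the range of Ezh2 coverage below: Pax6 with the largest share of its window covered in library 1, Pax7 with knockout coverage close to that of wild-type library 0, and Pax8 with the least Ezh2. Each is the 250 bases before an annotated start in RefSeq, build GRCm38.p6, written 5′ to 3′ on the gene's strand, with every CG dinucleotide in capitals. For Pax6, the first of 2 annotated starts is shown (chromosome 2 from 105668646 to 105668895, plus strand). For Pax7 the stretch lies on chromosome 4 from 139832969 to 139833218 (minus strand), and for Pax8 on chromosome 2 from 24475600 to 24475849 (minus strand).
Pax6: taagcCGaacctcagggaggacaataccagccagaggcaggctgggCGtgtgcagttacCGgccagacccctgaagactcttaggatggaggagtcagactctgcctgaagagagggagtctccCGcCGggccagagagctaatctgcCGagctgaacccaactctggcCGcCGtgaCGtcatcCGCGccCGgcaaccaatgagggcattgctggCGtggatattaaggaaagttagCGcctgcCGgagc
Pax7: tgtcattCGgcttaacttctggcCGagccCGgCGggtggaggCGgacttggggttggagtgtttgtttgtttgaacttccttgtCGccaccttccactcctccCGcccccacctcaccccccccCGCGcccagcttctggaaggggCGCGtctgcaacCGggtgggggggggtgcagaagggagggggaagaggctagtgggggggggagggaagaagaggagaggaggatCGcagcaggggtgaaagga
Pax8: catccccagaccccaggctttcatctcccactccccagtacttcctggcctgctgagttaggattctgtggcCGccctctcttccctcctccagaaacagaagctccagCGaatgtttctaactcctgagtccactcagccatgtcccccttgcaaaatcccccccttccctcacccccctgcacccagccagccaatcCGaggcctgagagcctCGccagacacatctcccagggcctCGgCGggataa

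The letters CG, which read the same on both strands, occur 15 times upstream of Pax6, 13 times upstream of Pax7 and 6 times upstream of Pax8. Of all 32851 promoters of this length in the RefSeq table, whose median is 6, at least as many CG were found in 27.3%, 31.5% and 50.4%. Over the 10 starts listed for 7 of the 8 genes the count ran from 5 (1 of 3 starts of Pax2) to 25 (another start of Pax2). The count did not follow the covered share at every locus. Pax9 had 7 CG and the largest covered share in library 0 and in the knockout, while Pax5, with 19, had the smallest share after Pax8. Their windows are 60 and 230 kb long, which affects the shares. In bases, library 0 covered 9869 bp at Pax9 and 7224 bp at Pax5. Other loci went the other way: Pax2, with starts of 5, 20 and 25 CG, had 14185 bp, and Pax8, with 6, had the least. The peaks are on mm9 and these sequences on another build, so no peak was placed on a start.

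Ezh2 peaks were dense at all 8 loci in all 3 Ezh2 lists. Each window held at least 2 peaks in each list, whereas 5.26% of the 26558 bins of 100 kb into which the genome was cut held a peak of all 3. Taken list by list, 8.73% of bins held a library 0 peak, 22.3% a library 1 peak and 11.0% a knockout peak. Called peaks covered 7.96% of the windows in library 0, 16.5% in library 1 and 6.11% in the knockout, against 0.152%, 0.566% and 0.127% of the genome. The windows were drawn around known genes and differ in length, so these shares describe the loci and were not tested. Library 1 covered more than library 0 at every locus: 14.0 against 5.45 kb at Pax1, 16.4 against 9.87 kb at Pax9, 31.1 against 14.2 kb at Pax2, 13.5 against 7.22 kb at Pax5, 3.78 against 1.60 kb at Pax8, 38.3 against 20.0 kb at Pax3, 21.1 against 12.9 kb at Pax7 and 29.6 against 9.92 kb at Pax6. The knockout values below are set against this gap between wild-type libraries. The gap lies between title numbers 0 and 1, whereas the knockout shares number 0 with library 0. It may therefore not be the spread that applies between the knockout and library 0. The lowest scores in the lists were 43.02, 30 and 43.03 for library 0, library 1 and the knockout. The lists hold no read counts, so depth is unknown.

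**Figure D1:**
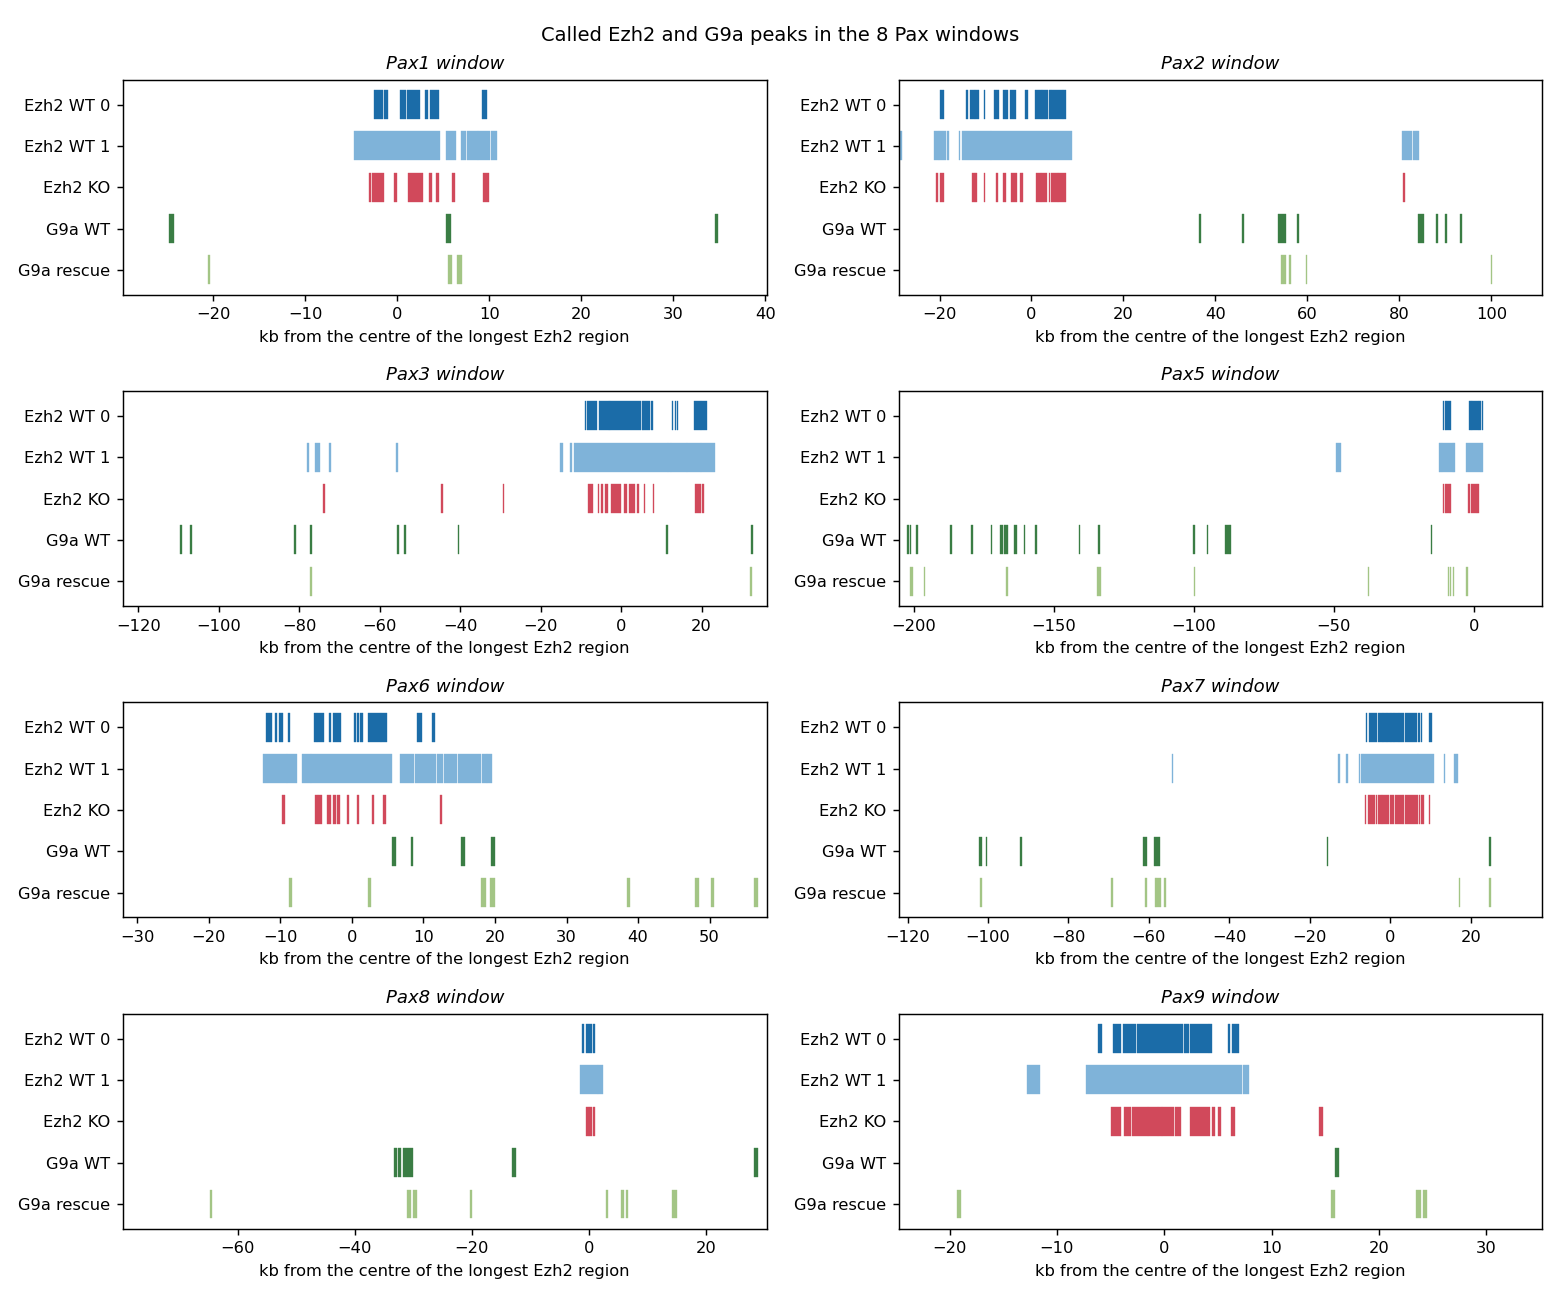
Positions of called peaks in each window, with the distance in kb from the centre of the longest Ezh2 region on the horizontal axis and 1 row for each of the 5 libraries (WT, wild type; KO, G9a-/- GLP-/-). At all 8 loci the longest region is 1 library 1 peak over a run of shorter library 0 and knockout peaks.

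The longest Ezh2 region at each gene was 1 peak in library 1, where library 0 and the knockout had several shorter ones, and further regions of both wild-type libraries stood beside it at all loci but Pax8 and Pax9. Merged over the 3 lists, the peaks of the windows formed 65 regions. The longest region at each locus ran to 23.3 kb at Pax3, 17.4 kb at Pax2, 14.6 kb at Pax9, 13.5 kb at Pax7, 11.3 kb at Pax6, 9.36 kb at Pax1, 5.35 kb at Pax5 and 2.98 kb at Pax8. Among all 13994 Ezh2 regions of the genome, ordered by span, that of Pax3 stood 4th, that of Pax2 12th, that of Pax9 20th and that of Pax8 953rd. Spans of at least 10 kb were reached by 5 of the 65 regions, against 0.622% of all regions. Each of the 5 was the longest region of a different locus. Each of the 8 longest regions held peaks of all 3 lists, with 1 peak in library 1, 3 to 10 in library 0 and 3 to 11 in the knockout.

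The domains lay toward 1 end of the window at the genes with long bodies. At Pax5, Pax7 and Pax8, which RefSeq places on the minus strand, the mean position of library 0 peaks, weighted by width, stood at 87.9%, 77.3% and 72.4% of the window counted from its low-coordinate end. At Pax2, on the plus strand, it stood at 18.3%. In each of these 4 windows the Ezh2 domain was thus on the side where the gene's start would lie if the orientation is the same on mm9. Pax3 also has a long body (95.9 kb), and its library 0 centre stood at 79.6%. No strand was available for Pax3, so the side of its start was not assigned. The knockout centres lay within 3.44 points of those of library 0 at all 8 loci (for example 77.2% at Pax7 and 21.2% at Pax2).

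Pax1 and Pax9 act in the sclerotome, which forms the vertebrae, and in the pharyngeal pouches. At Pax1, peaks covered 5447 bp in library 0, 14023 bp in library 1 and 5144 bp for the knockout. The main region, on chromosome 2 from 147185180 to 147194538, held 6 library 0 peaks, 1 library 1 peak and 6 knockout peaks. Its highest peak scored 602.42 in library 0 (rank 447 of 5425), 3100 in library 1 and 668.08 in the knockout (rank 118 of 6198). A score of 3100 in library 1 was shared by 322 peaks, all tied at rank 17, so it does not order them. Scores come from the authors' peak caller and rank peaks within their own list. At Pax9 the covered lengths were 9869, 16435 and 9178 bp, and a single region on chromosome 12 from 57787472 to 57802026 held 9 library 0 peaks and 11 knockout peaks. This window had the largest covered share in library 0 (16.4%) and in the knockout (15.3%). Shares as large were found in 0.0377% and 0.0339% of 100 kb bins in those lists. The window is the shortest, at 60 kb, and is drawn around the gene, so its share and that of a 100 kb bin are unlike measures. In bases, Pax3 had more in library 0 (20022 bp). The ratios of knockout to library 0 were 0.944 at Pax1 and 0.930 at Pax9.

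Pax2, Pax5 and Pax8 are needed in the kidney and midbrain (Pax2), in B lymphocytes (Pax5) and in the thyroid (Pax8), and their loci differed widely in Ezh2. At Pax2, 14185 bp of the window were covered in library 0, 31106 bp in library 1 and 11606 bp by knockout peaks. The knockout kept all 3 regions that both wild-type libraries held, from 44808861 to 44837600 on chromosome 19, and its covered length was 0.818 times that of library 0. The second longest of these ran from 44813699 to 44820134, where coverage was 2765 bp for library 0 and 1447 bp for the knockout. The main region to its right had 10481 and 8655 bp. At Pax5 the lengths were 7224, 13500 and 6438 bp. All knockout peaks and most of the wild-type length lay in a pair of strong regions of chromosome 4, at 44714107 to 44717921 (2705 and 3815 bp in libraries 0 and 1) and at 44722735 to 44728088 (4121 and 5354 bp). The highest peak lay in the first of these in library 0 (score 1400.71) and in the second in the knockout (684.88), and in library 1 both stood at 3100. Pax8 had the least Ezh2 of the family: 1602, 3782 and 1516 bp. A single region on chromosome 2, from 24328147 to 24331126, held all of it except 802 bp of library 1, which lay in a separate peak from 24331257 to 24332058. Its highest scores, 254.34 in library 0 and 124.98 in the knockout, ranked at 21.5% and 21.4% of their lists. The library 1 peak there scored 1408.64 and ranked higher in its own list, at 6.18%. The ratios of knockout to library 0 were 0.891 at Pax5 and 0.946 at Pax8.

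Pax3 and Pax7, which mark the dorsal neural tube and neural crest and the progenitors of skeletal muscle, are the closest relatives of each other, and their loci differed in the knockout list. At Pax7, the covered length was 12945 bp in library 0, 21111 bp in library 1 and 12480 bp for the knockout. The knockout thus stood at 0.964 times library 0, the nearest of the 8 loci with all peaks and the full windows. Pax5 was nearer with scores of at least 100 (0.977 against 0.971) and with windows narrowed by 10% at each end (0.991 against 0.964), and Pax8 was with lists of equal length (0.946 against 0.942). Its highest peak, on chromosome 4 from 139385830 to 139388951, scored 1458.56 and ranked 18th of 6198 in the knockout, and the library 0 peak there, from 139385875 to 139388918, scored 1532.92 and ranked 64th of 5425. At Pax3 the covered lengths were 20022, 38317 and 11375 bp, and the knockout stood at 0.568 times library 0. Library 0 had 1 peak of 7661 bp here, from 78191182 to 78198842 on chromosome 1, with a score of 3031.82 and rank 6 of its list. The knockout split the same stretch into shorter peaks, the highest of them 2582 bp long with a score of 611.24 (rank 136). Ranks from lists of different length do not measure a change. The region from 78206256 to 78210212, with 3 library 0 peaks and 1 library 1 peak of score 1248.44, had no knockout peak. The Pax3 window also held 3 short knockout peaks, of 303 to 383 bp and scores of 46.66 to 61.24, where neither wild-type list had any.

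Pax6 is a master regulator of the eye, and also acts in the forebrain and the pancreatic islets. Of the 8 loci it had the largest covered share in library 1 and the lowest knockout to library 0 ratio. Peaks covered 9921 bp in library 0, 29648 bp in library 1 and 4573 bp for the knockout, a ratio of 0.461 to library 0 and of 0.154 to library 1. The 11 knockout peaks were 268 to 543 bp wide and the highest scored 126.43 (21.0% of the list), against widths up to 1837 bp and a highest score of 433.17 (12.7%) in library 0. Of the 4 Pax6 regions of both wild-type libraries, the main one (105506374 to 105517689 on chromosome 2) and the one from 105499535 to 105502962 held knockout peaks. Those at 105503005 to 105504390 and at 105520808 to 105523841 did not, although library 1 scored 2557.03 in the second. At scores of at least 100, the knockout had 1 peak of 501 bp at Pax6 and library 0 had 9 peaks covering 7929 bp. Over their whole lists, 27.1% of knockout peaks and 45.0% of library 0 peaks reached that score, and the part of this difference in the Pax6 value was not tested.

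**Figure D2:**
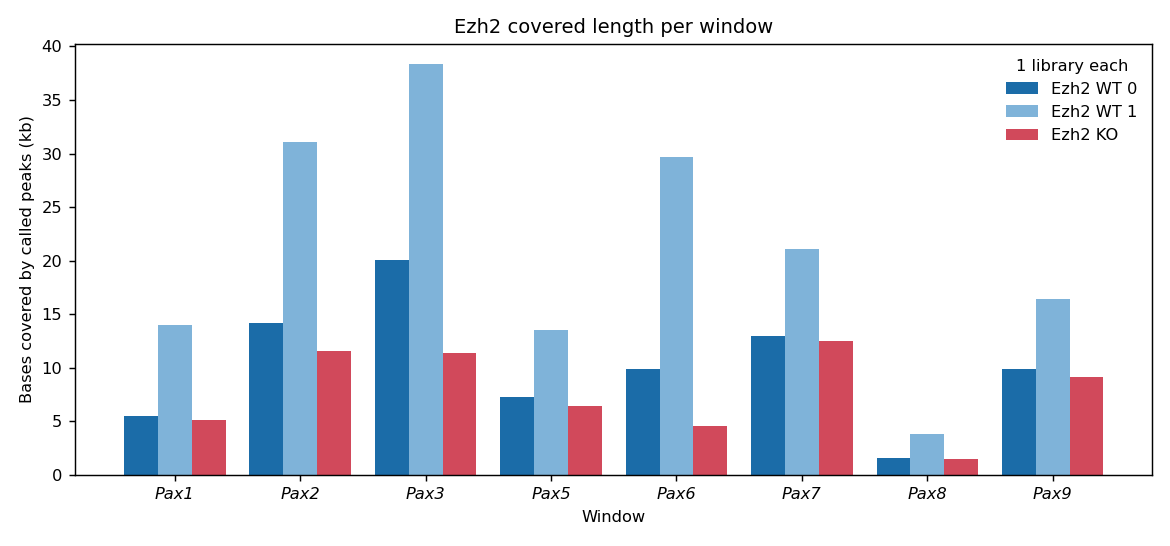
Bars give the length covered by called Ezh2 peaks (kb, from 0) in each window, 1 bar for each of the 3 libraries. Library 1 is highest and the knockout lowest at all 8 loci, and the step from library 0 to the knockout is visible mainly at Pax2, Pax3 and Pax6.

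Across the family, the knockout covered fewer bases than either wild-type library at 8 of 8 loci. Such an order held in 67.9% of the 1397 bins of 100 kb with peaks of all 3 lists, and in 85.4% of the 240 of those with at least 10 kb covered in library 1. These 240 are closer in coverage to the Pax windows, except to Pax8, which had 3782 bp in library 1. The bins have a fixed length, and the windows do not. The distance from library 0 down to the knockout was smaller than that between the wild-type libraries at all 8 loci (86 to 8647 bp against 2180 to 19727 bp). The same held in 98.8% of the 240 bins, but these were chosen by high library 1 coverage, so that share is not an independent comparison. The median ratio of knockout to library 0 was 0.911 over the 8 loci and 0.769 over the 240 bins. Pax1, Pax5, Pax7, Pax8 and Pax9 lay between 0.891 and 0.964 and Pax2 at 0.818, above that median. Pax3 and Pax6 lay below it, and 22.9% and 14.2% of the 240 bins had a ratio as low as theirs. Both ratios thus lay within the range of the widely covered bins, from which bins at the Pax loci were not left out. With 1 knockout library no difference between the conditions could be tested.

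**Figure D3:**
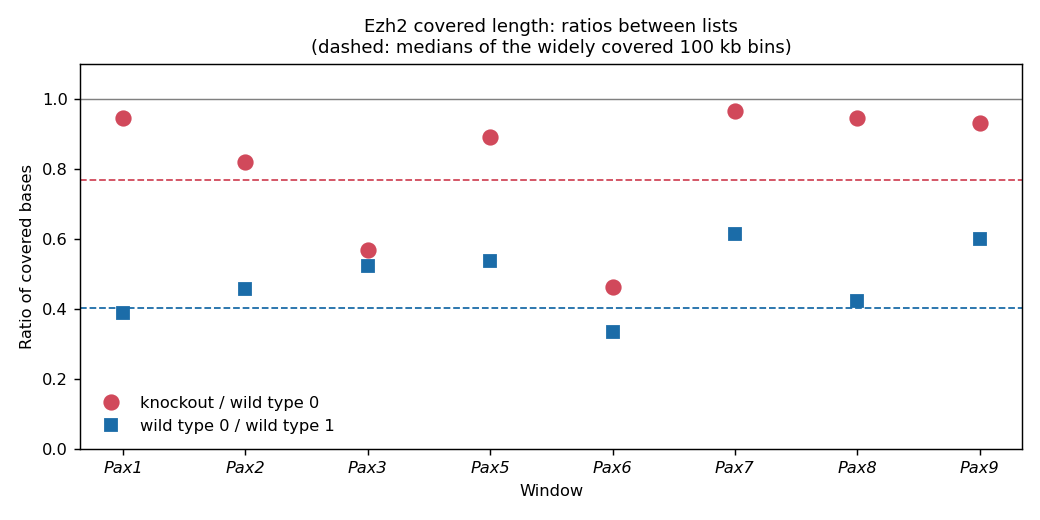
Ratio of covered bases in each window between the knockout and wild-type library 0 (circles) and between wild-type libraries 0 and 1 (squares), with the medians of the 240 widely covered bins of 100 kb as dashed lines (0.769 and 0.401). Pax3 and Pax6 are the loci whose circle lies below its dashed line.

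Counted by regions, 16 of the 20 Pax regions held by both wild-type libraries also held a knockout peak (80.0%, exact binomial 95% interval 56.3 to 94.3), against 62.6% of all 2642 such regions of the genome. The Pax regions were long, with a median of 3886 bp against 2295 bp. Among regions of at least 3 kb, 13 of 15 Pax regions and 91.1% of all regions held a knockout peak. The interval covers counting error alone, and neighbouring regions of 1 locus are not independent. The 4 regions without a knockout peak were 2 at Pax6, 1 at Pax3 and 1 at Pax5. All regions of both libraries at Pax1, Pax2, Pax7, Pax8 and Pax9 held one. The share rests on asking for both wild-type libraries: it was 32.8% (20 of 61, against 18.8% over the genome) when library 0 was left out and 64.7% (44 of 68, against 46.9%) when library 1 was. A further 37 of the 65 regions were library 1 peaks alone (61.0% of all regions of the genome), 4 were shared by library 1 and the knockout (3.99%), and 4 were knockout peaks alone (12.7%), at Pax3 (3) and Pax9 (1).

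The overlap was also counted by single peaks. All 83 library 0 peaks of the windows overlapped a library 1 peak (91.3% in the whole list), and 59 overlapped a knockout peak (71.1%, against 51.1% in the whole list). Of the 61 library 1 peaks, 20 overlapped a library 0 peak (22.5% in the whole list) and 20 a knockout peak (19.0%). Of the 84 knockout peaks, 80 overlapped a library 1 peak (71.0% in the whole list) and 70 a library 0 peak (52.5%). A peak in the top 10% of its list by score was present at 6 of the 8 loci in library 0 and in the knockout, with Pax6 and Pax8 without one in both, and at all 8 in library 1. This counts loci with at least 1 such peak, and the share of 100 kb bins with one was not computed. Of the windows' peaks, 13 of 83 in library 0, 18 of 61 in library 1 and 18 of 84 in the knockout were in that top 10% (9.99% of each list).

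G9a peaks were also more frequent in the windows than in the genome as a whole, and their scores were near those of the whole lists. Wild-type G9a had 56 peaks (54.9 per Mb, against 25.4 per Mb over the genome) and the rescue had 47 (46.1 against 31.5 per Mb). All 8 windows held G9a peaks in both lists, as did 60.9% of 100 kb bins in the wild-type list and 70.9% in the rescue list. The median score in the windows was 28.4 in both lists, against 31.7 and 26.9 over the whole lists, whose lowest score is 20. Wild-type G9a peaks were most frequent at Pax5 (19 peaks, 82.6 per Mb), followed by Pax2 (8) and Pax3 (9) at 57.1 and 56.3 per Mb. Pax8, Pax6, Pax7 and Pax1 had 5, 4, 7 and 3 peaks (42.9 to 45.5 per Mb), and Pax9 had 1 (16.7 per Mb). In the rescue, from most to least frequent, there were 8 peaks at Pax6 (88.9 per Mb), 8 at Pax8, 4 at Pax9, 8 at Pax7, 10 at Pax5, 3 at Pax1, 4 at Pax2 (28.6 per Mb) and 2 at Pax3 (12.5 per Mb). The low rescue value at Pax3 was near that of its chromosome. Chromosome 1 had 41.7 wild-type and 11.5 rescue peaks per Mb, while the chromosomes of the other 7 loci had 20.6 to 26.7 and 29.8 to 39.2.

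**Figure D4:**
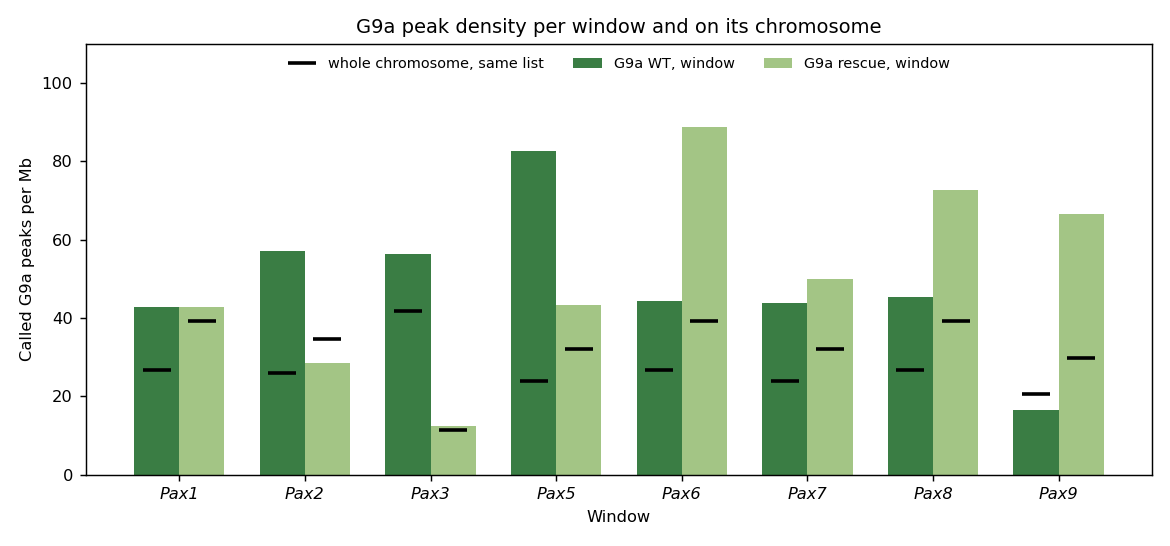
Bars give called G9a peaks per Mb of each window in wild-type and rescue cells, 1 library each, and black marks give the density over the whole chromosome in the same list. The rescue bar at Pax3 (12.5) is near its chromosome 1 mark (11.5), and the wild-type bar at Pax9 (16.7) and the rescue bar at Pax2 (28.6) lie below their marks.

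Of the 56 wild-type G9a peaks, 15 (26.8%) overlapped a rescue peak, against 31.9% of the whole list, and 16 of the 47 rescue peaks (34.0%) overlapped a wild-type peak, against 27.2%. Scores of at least 100 were reached by 7 of the wild-type peaks (10.7% of the whole list) and 3 of the rescue peaks (3.65%). Of the 7, 6 overlapped a rescue peak, as did 74.9% of all wild-type peaks of such a score. The 3 all overlapped a wild-type peak, as did 80.2% in the rescue list. The highest was at Pax2, on chromosome 19 from 44882527 to 44884215, with a score of 268.66 (2.09% of the list), and the rescue peak there, from 44883090 to 44884166, scored 141.76 (1.84%). At Pax7 3 such wild-type peaks had scores of 210.86, 171.34 and 123.36, and the rescue peaks over them scored 22.9 to 44.4. At Pax8 the wild-type peak from 24297897 to 24299506 on chromosome 2 scored 185.19, and the rescue peak over it 45.66. At Pax5 the wild-type peak from 44591220 to 44592102 on chromosome 4 scored 161.48, and the rescue peak from 44590914 to 44592285 scored 136.11. The third strong rescue peak, also at Pax5, from 44524188 to 44525071, scored 115.76 and lay over a wild-type peak of 51.45. The strong wild-type peak without a rescue peak lay at Pax2, from 44913002 to 44914250 (score 137.28).

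Most G9a peaks of the windows lay outside Ezh2 peaks, as did most of the windows' bases. Among the 20 Pax regions with Ezh2 in both wild-type libraries, 2 held a wild-type G9a peak, at Pax3 and Pax6 (10.0%, against 16.0% of all such regions), and 4 held a rescue G9a peak, at Pax5 and Pax6 (20.0%, against 20.0%). By single peaks, 8 of 56 wild-type G9a peaks (14.3%) overlapped a library 1 Ezh2 peak, at Pax6 (4), Pax3 (2), Pax1 (1) and Pax2 (1). Of the 47 rescue peaks 10 did (21.3%), at Pax5 (4), Pax6 (4) and Pax1 (2). Library 1 peaks covered 16.5% of the windows' bases. That is an unlike measure, since a G9a peak counts as overlapping from 1 bp and so meets an Ezh2 peak more easily than a single base does. Over the whole lists, 2.54% of wild-type and 2.45% of rescue G9a peaks overlapped a library 1 peak. With library 0 and knockout Ezh2 peaks, 0 wild-type G9a peaks of the windows overlapped in either case (0.463% and 0.461% of the list), while 4 rescue peaks overlapped library 0 (0.420%) and 3 the knockout (0.377%). The median distance from the nearest library 1 Ezh2 peak was 26.7 kb for wild-type G9a peaks and 9.55 kb for rescue peaks, and 25.3 and 84.1 kb for the 7 and 3 with scores of at least 100. The long Pax5 window held 19 of the 56 wild-type peaks and 10 of the 47 rescue peaks. The medians over all peaks thus depend on Pax5 and do not show that rescue peaks lay closer to Ezh2 at each locus. At Pax6 all 4 wild-type G9a peaks, with scores of 22.12 to 29.87, overlapped library 1 Ezh2 peaks. At Pax7, Pax8 and Pax9 no G9a peak of either list did. At Pax5 the 19 wild-type peaks stood 2.4 to 118 kb from Ezh2, whereas 4 of the 10 rescue peaks overlapped it, with scores of 20.33 to 52.93. By the series' design text both proteins had the pooled wild-type inputs as control, and whether the knockout and rescue lists used the same control is not stated. The rescue has no GLP by its label, so in a comparison of these G9a lists the rescue and the absence of GLP cannot be told apart.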

How the data were processed

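Chromatin was fixed with 1% formaldehyde for 10 min, after 45 min with 2 mM DSG for the G9a samples, and libraries had 15 PCR cycles, per the labels' protocols. Bowtie 0.12.7, MACS 1.4 and mm9 are named in the submitters' processing notes. The deposited lists, 1 per library, give positions and the authors' score (MACS takes the negative log10 of a p and multiplies it by 10). The threshold for a call was not found in the labels or files. The 3 input libraries were not analysed here. Windows came from rounded mm9 positions. No mm9 annotation was used, so exons, introns and starts were not assigned; each gene's RefSeq chromosome (GRCm38.p6) matched its window, and its length was 18.7% to 80.8% of it. Covered length is the union of peaks inside a window. Peaks overlapping by at least 1 bp were merged into regions. Python 3.11.15, numpy 2.4.6, scipy 1.17.1 and matplotlib 3.10.9 were used, with mm9 chromosome lengths from GenomeInfoDb 1.38.1. On simulated data, 121 of 200 regions planted as kept were recovered as 121. Samples were grouped by title. No test between conditions was run, since each group but wild-type Ezh2 had 1 library. All 8 genes and the top peak of each list were to be described, but not every top peak is given above. Those left out include Ezh2 at Pax2 and Pax9, G9a at Pax1, Pax3 and Pax9, and rescue G9a at Pax7. Other peaks were named after their values were seen. The members, lists and alternatives (score, window, list length, overlap, merging and library) were chosen with earlier results of these data known.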

Additional observations from a re-analysis of the deposited data

How the results depend on the processing

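The knockout covered fewer bases than the wild-type libraries used at 7 or 8 of the 8 loci under all 7 alternatives. Leaving out a wild-type library could not lower this count. The exception was Pax8, where the ratio of knockout to library 0 turned from 0.946 to 1.06 with scores of at least 100. That score moved the Pax6 ratio from 0.461 to 0.0632, G9a density from 54.9 to 6.86 peaks per Mb in the wild type and from 46.1 to 2.94 in the rescue, and Ezh2 regions with a wild-type G9a peak from 10.0% to 0% (0 of 16), since fewer peaks entered. Windows widened by 50 kb lowered the covered share from 12.2% to 7.08% in the wild type (mean of 2 libraries) and from 6.11% to 3.45% in the knockout. Merging peaks within 1 kb gave 11 regions of both wild-type libraries, of which 100% held a knockout peak and 36.4% a wild-type G9a peak. Merging makes regions longer, which by itself can raise both shares. The shares over the genome were not computed with this merging, so these values have no comparison. Leaving out each wild-type Ezh2 library gave 32.8% to 64.7% of regions with a knockout peak and 0% to 13.1% with a G9a peak. Leaving out Pax6, chosen after seeing the data, gave 87.5% and 6.25%. In all, 77 of 87 values were labelled the same. That meant within a factor of 1.5, within the exact binomial interval (shares of regions) or within the SD of the wild-type libraries (6.01 points). Some labels were fixed in advance: without a wild-type library the knockout share cannot change, and the wild-type mean cannot leave that SD. A minimum score of 43.03 in the Ezh2 lists left the ratios to library 0 unchanged. The tally is thus no measure of robustness. No paired analysis was possible because the compared groups share fewer than 2 replicate numbers. The depth behind the lists is unknown.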
